A study of Mus musculus with 31 samples.

Results

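Runx1, Runx2 and Runx3 encode the DNA-binding subunits of the core binding factors, and Cbfb encodes the beta subunit that all of them share. The 4 genes were taken by symbol from a table of 55492 rows, and all 4 passed the filter on low counts, which kept 22172 rows. The family was selected on group differences in these same counts, which were known beforehand, so its values and tests describe these libraries and are not independent evidence of a pattern. The RNA came from long-term haematopoietic stem cells (LT-HSCs) of mouse bone marrow, gated as Lin- Sca1+ Kit+ CD150+ CD48-, from wild-type recipients of mutant marrow mixed with a 10-fold excess of wild-type marrow.

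Every group carried SclCre, a Cre recombinase named for the regulatory sequences of the blood gene Scl (Tal1), together with FF1 and GFP, the genotype that the labels call VF and the study describes as transgenic for the mutant human kinase JAK2-V617F. The VFDM genotype (VF;Dm in the labels) added Dnmt3Δ/Δ, described by the study as a knockout of Dnmt3a, a de novo DNA methyltransferase. From 4 weeks after transplant, mice of both genotypes were treated for 8 weeks. COMBO mice received pegylated interferon alpha (25 µg/kg under the skin each week) with 5-azacytidine (2 mg/kg into the abdomen each day), AZA mice the azacytidine alone, IFN mice the interferon alone, and the others vehicle. The groups were VFDM COMBO with 3 libraries and VFDM AZA, VFDM IFN, VFDM vehicle, VF COMBO, VF AZA, VF IFN and VF vehicle with 4 each, 31 in all. The gate as labelled did not use GFP, so wild-type competitor stem cells were not separated from mutant cells by it. In bulk RNA of this kind, fewer cells of a type and less RNA per cell cannot be told apart.

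RUNX proteins bind DNA through a conserved Runt domain that recognises the core TGTGGT, read as ACCACA on the other strand, or its variant TGCGGT. CBFB does not touch DNA itself but raises the affinity of the RUNX subunit and protects it from degradation. RUNX1 is required for blood stem cells to emerge and, in the adult, for normal megakaryocyte and lymphoid development, and it is mutated in myeloid malignancies. RUNX2 is best known as the master factor of bone-forming osteoblasts, and RUNX3 for cytotoxic T cells, natural killer cells and sensory neurons. The Runx genes each use a distal and a proximal promoter.

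A start of each Runx gene carries RUNX core letters of its own, shown because the 3 genes share their arrangement. Windows from 250 bases before to 50 after each start were taken from RefSeq (GRCm38.p6), and both strands were searched for TGTGGT and TGCGGT, which do not overlap each other. The stretches below run 5′ to 3′ on the strand of the gene, and capitals mark the RUNX core letters.
Runx1, distal start, chr16:92826025-92826052, minus strand: taaacaACCACAgaACCACAagttgggt
Runx2, chr17:44814581-44814610, minus strand: caaacaACCACAgaACCACAagTGCGGTgc
Runx3, distal start, chr4:135120505-135120534, plus strand: ccctcaACCACAgaACCACAaggccaggcc
In each gene, 2 cores in the same direction were 8 bases apart. They began at positions 29 and 37 of the Runx1 window counted from the start site, at 24 and 32 of Runx2, and at -134 and -126 of Runx3. Of 32544 windows, 5428 (16.7%) held TGTGGT on either strand and 2102 (6.46%) held TGCGGT. The paired arrangement, picked after the sequences had been seen, was in 7 windows (0.0215%), those of Runx1, Runx2, Runx3, Olfr24, Gm12236, Gm15462 and Gm16225. The proximal windows of Runx1 and Runx3 and the window of Cbfb held neither core. These windows were rich in CG dinucleotides, with 35 in Runx1, 45 in Runx3 and 30 in Cbfb, against 2, 2 and 8 in the windows shown above for Runx1, Runx2 and Runx3. The counts are per gene, so use of the distal and the proximal start was not measured.

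Libraries held 17782394 to 73910928 counts and 17087 to 28851 detected rows. The TMM scaling factors of VF vehicle libraries 2 and 4 were 0.753 and 0.719, below the range of the other libraries, 0.927 to 1.071. Dnmt3a was at 109 to 119.6 CPM (counts scaled to library size) in VFDM vehicle and at 162 to 297 CPM in VF vehicle libraries. The library labelled VFDM IFN 3 held 162 CPM of Dnmt3a, against 102 to 111 CPM in the other VFDM IFN libraries, so the targeted gene went against its label there. VF COMBO libraries held 104.4 to 193.2 CPM of Dnmt3a, and the lowest, library 3, was below the VFDM vehicle range, also against its label. Whether any library was mislabelled was not tested. Irf7, a gene induced by interferon, was at 115 to 159 CPM in VFDM AZA, the range of the interferon-treated groups, against 9.85 to 16.8 CPM in VFDM vehicle and 3.34 to 16.6 CPM in VF AZA. The 18 LT-HSC markers had a mean of at least 1 CPM in 7 of the 8 groups and 15 of them did in VFDM COMBO, where Procr, a stem cell marker outside the gate, was at 0.0315 to 0.439 CPM, against 33.9 to 40.4 CPM in VFDM vehicle. Of the 18 markers 13 were called lower in VFDM COMBO than in VFDM vehicle, where 10.5% of all rows were called lower. Of the genes of the gate, Slamf1 (CD150) was at 87.5 to 95.4 CPM in VFDM COMBO and 59.3 to 93.3 CPM in VFDM vehicle. Ly6a (Sca1) was at 11.6 to 18 and 12.1 to 15.3 CPM, and neither was called. Kit was lower without overlap, at 514 to 677 against 683 to 804 CPM, and was not called. Cd48, which the gate excludes, was higher without overlap, at 14.1 to 22.8 CPM in VFDM COMBO and 4.52 to 7.6 CPM in VFDM vehicle. Ly6a was called lower in VFDM COMBO than in VFDM IFN (47.7 to 63 CPM) and VFDM AZA (38.1 to 53.6 CPM). The labels do not say that each library is a separate animal, so p-values measure the spread between libraries.

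All 4 genes were expressed in each of the 31 libraries. Scaled to exon length, Cbfb had the highest level with a median of 38 CPM per kilobase over the libraries (26.2 to 51.6), then Runx1 with 24 (14.5 to 39.1), Runx3 with 21.5 (3.89 to 38.8) and Runx2 with 11.2 (4.17 to 18.4). On this per-length scale the Runx3 range was the widest and covered most of the ranges of Runx1 and Runx2. Runx3 had the lowest mean of the 4 in VFDM vehicle, 4.64 CPM per kilobase, and was above the Runx1 mean in VF COMBO, 33 against 23.4. In VFDM COMBO the lowest was Runx2 at 5.13 CPM per kilobase.

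**Figure D1:**
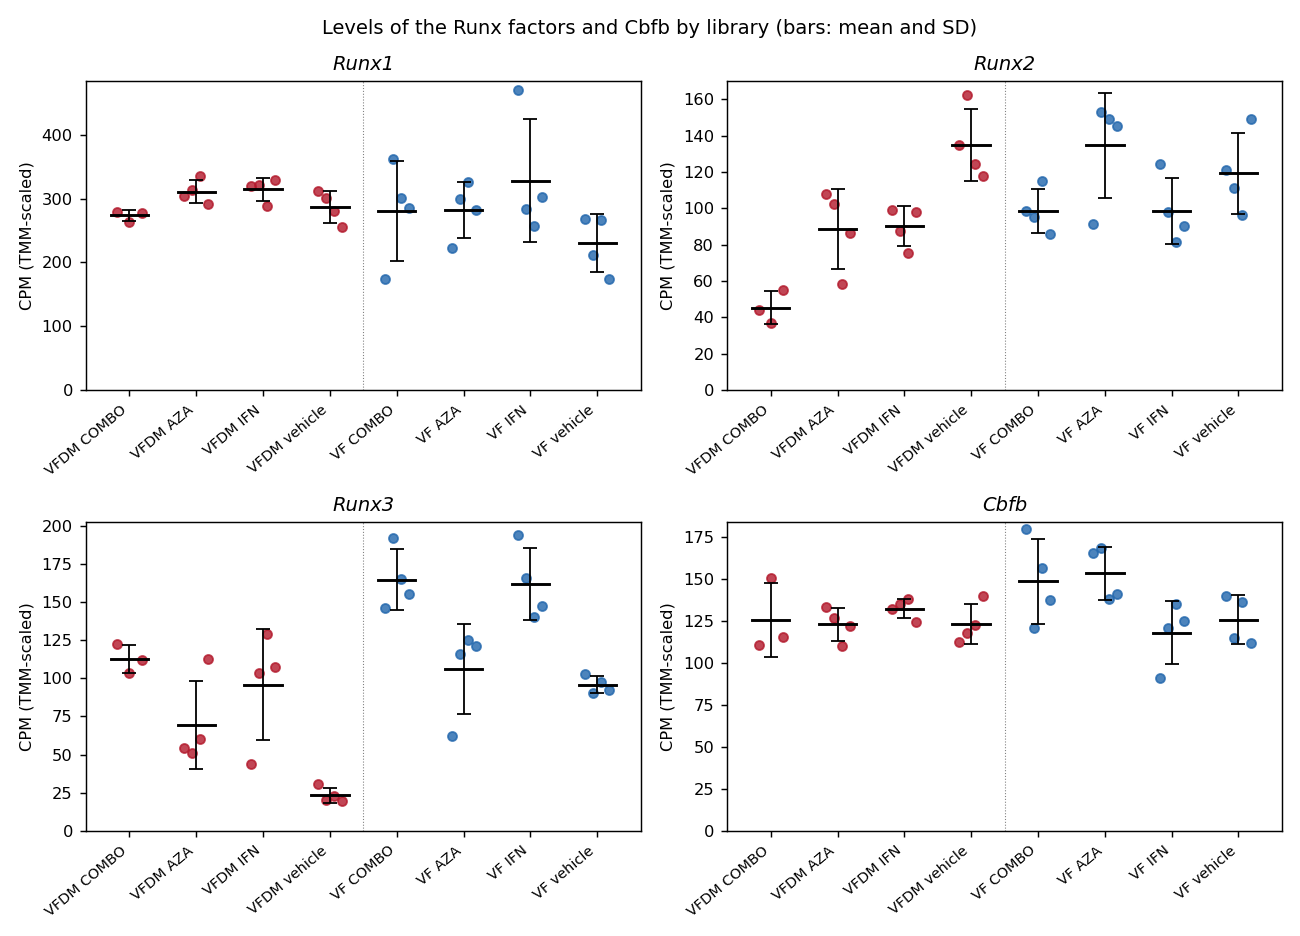
Levels of the 4 genes in CPM (TMM-scaled libraries, linear axis from 0) in each library (points) of the 8 groups, with the group mean and SD (bars). Runx3 is lowest in VFDM vehicle, at 19.5 to 30.4 CPM, and Runx2 is lowest in VFDM COMBO, at 36.9 to 55 CPM, while the Runx1 and Cbfb groups overlap along the order of their means.

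Runx3 was about 4-fold lower in VFDM vehicle than in VF vehicle LT-HSCs and was higher in all 3 treated VFDM groups than in VFDM vehicle. Runx3 (ENSMUSG00000070691; mm10 chr4:135120652-135177990, plus strand) shares no exon with another gene of the GENCODE vM21 annotation. The 4 VFDM vehicle libraries held 30.4, 20.3, 22.7 and 19.5 CPM of Runx3 and the 4 VF vehicle libraries 102.8, 90.3, 97.4 and 92.4 CPM. The groups did not overlap, and the highest VFDM vehicle library was far below the lowest VF vehicle library. The log2 fold change of Runx3 was -2.05 ± 0.25 (SE; edgeR quasi-likelihood, adjusted p = 5.44e-05 over 22172 rows), a 4.13-fold difference with a 95% interval of -2.56 to -1.53 on the log2 scale. Runx3 ranked 1 of the 22172 rows by p in this comparison, where 212 rows (0.956%) were called, 38 higher and 174 lower. Runx3 kept its call whichever of the 8 libraries was left out, with log2 fold changes of -2.17 to -1.94 and adjusted p from 2.27e-05 to 0.00113. It also kept it without VF vehicle libraries 1 and 4, at -1.98 (adjusted p = 0.00217; 3.84e-11 to 0.00217 over all alternatives).

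Markers of cells that are known for RUNX3 were scarce in both vehicle groups. The 13 T and natural killer cell markers summed to 8.31 to 12.1 CPM in VFDM vehicle and 10.7 to 18.8 CPM in VF vehicle libraries. Cd3e, Trbc1, Trbc2, Gzma and Ncr1 were at 0 in all 4 VF vehicle libraries, while VFDM vehicle held at most 0.022 CPM of Cd3e and 0.0296 CPM of Trbc2. Of all rows 0.956% were called, and of the 10 markers tested 1 was, Nkg7, a granule protein of cytotoxic cells. It was lower in the same direction as Runx3, at 2.06 to 4.76 CPM in VFDM vehicle and 3.62 to 13 CPM in VF vehicle, with overlap (-1.51 ± 0.39, edgeR, adjusted p = 0.0479). The LT-HSC markers summed to 3520 to 3930 CPM in VFDM vehicle and 2380 to 3050 CPM in VF vehicle, without overlap. Of 18, 2 were called higher in VFDM vehicle, Slamf1 and Angpt1, where 0.171% of all rows were called higher. The GFP transgene (pEGFP) had a median of 390 CPM in VFDM vehicle and 219 CPM in VF vehicle. The part of these differences, and of the share of wild-type competitor cells, in the Runx3 difference was not tested.

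In VFDM cells the interferon group stood above vehicle for Runx3. VFDM IFN libraries held 43.8, 103.4, 129 and 107 CPM of Runx3, against 30.4, 20.3, 22.7 and 19.5 CPM in VFDM vehicle. Library 1 was low among the VFDM IFN libraries, yet the groups did not overlap. The log2 fold change was 2.05 ± 0.25 (edgeR, adjusted p = 2.08e-06), a 4.14-fold rise in a comparison that called 0.965% of rows. The highest value came from the library labelled VFDM IFN 3, whose Dnmt3a level went against its label, and without it the log2 fold change of Runx3 was 1.87 (adjusted p = 1.78e-05; 3.37e-12 to 5.53e-05 over all alternatives). Of 10 neutrophil markers 5 were called higher in VFDM IFN, S100a8, S100a9, Retnlg, Ngp and Camp, and the list summed to 96.1 to 591 CPM in VFDM IFN and 34.1 to 98.3 CPM in VFDM vehicle. Megakaryocyte and platelet markers summed to 1050 to 1820 CPM in VFDM IFN and 474 to 724 CPM in VFDM vehicle, with 3 of 12 called higher. T and natural killer cell markers summed to 12.2 to 24.5 CPM in VFDM IFN and 8.31 to 12.1 CPM in VFDM vehicle, with 0 of 10 tested called. VFDM IFN library 4 held 2.86 CPM of Cd3e and 3.16 CPM of Cd3g. Nkg7 was at 4.6 to 10.4 CPM in VFDM IFN and 2.06 to 4.76 CPM in VFDM vehicle. The part of these markers in the Runx3 difference was not tested.

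Azacytidine in VFDM cells came with a smaller rise of Runx3. VFDM AZA libraries held 54.2, 50.9, 60.3 and 112.6 CPM of Runx3, all above the highest VFDM vehicle library at 30.4 CPM. Library 4 stood apart from the other 3 of its group. The log2 fold change of Runx3 was 1.58 ± 0.25 (edgeR, adjusted p = 1.52e-04) among 0.925% of rows called, and 1.27 without VFDM AZA library 4 (adjusted p = 0.00241). It was 1.18 and no longer called without the libraries under 20000 detected rows, which include VFDM AZA libraries 3 and 4 (adjusted p = 0.0615; 3.29e-07 to 0.0615 over all alternatives). The Irf7 level of this group was that of interferon-treated groups, 115 to 159 CPM. Of 15 erythroid markers 7 were called higher, and they summed to 528 to 1300 CPM in VFDM AZA and 509 to 542 CPM in VFDM vehicle. Megakaryocyte and platelet markers summed to 993 to 1170 CPM in VFDM AZA and 474 to 724 CPM in VFDM vehicle, with 1 of 12 called higher. Their part in the Runx3 difference, and that of Irf7, was not tested.

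The combination gave the highest Runx3 of the VFDM groups. VFDM COMBO libraries 2, 3 and 4 held 122, 103.7 and 112 CPM of Runx3, a narrow range above every VFDM vehicle library. The log2 fold change was 2.28 ± 0.26 (edgeR, adjusted p = 1.7e-07), a 4.86-fold rise, in a comparison that called 16% of rows. Against VFDM AZA the difference was 0.70 ± 0.26 (adjusted p = 0.094) and against VFDM IFN 0.23 ± 0.26 (adjusted p = 0.689), with 7.82% and 7.88% of rows called. The groups overlapped in both, with 95% intervals of 0.17 to 1.23 and -0.30 to 0.76 on the log2 scale. Without VFDM AZA library 4 the COMBO level of Runx3 was 1.07 above VFDM AZA on the log2 scale and passed the test (adjusted p = 0.00771; 0.00771 to 0.203 over all alternatives).

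VFDM COMBO also differed from VFDM vehicle in the summed levels of cell type markers. The LT-HSC markers summed to 1650 to 1790 CPM in VFDM COMBO and 3520 to 3930 CPM in VFDM vehicle. Erythroid markers summed to 2680 to 21200 CPM in VFDM COMBO and 509 to 542 CPM in VFDM vehicle, and neutrophil markers to 651 to 1640 and 34.1 to 98.3 CPM. T and natural killer cell markers summed to 25.3 to 49.9 CPM in VFDM COMBO and 8.31 to 12.1 CPM in VFDM vehicle. Of 10 tested, 3 were called higher, Nkg7, Trbc2 and Il7r, where 5.52% of all rows were called higher. Nkg7 alone was at 21.7 to 22.2 CPM in VFDM COMBO and 2.06 to 4.76 CPM in VFDM vehicle. In VFDM COMBO library 2, Cd3e, Cd3g, Cd8a, Trbc2, Ncr1 and Gzma were at 0, and Cd4 was at 0.788 CPM and Nkg7 at 22. Library 3 held 2.7 CPM of Cd3e, 6.56 CPM of Trbc2 and 9.61 CPM of Gzma. Library 4 held 2.32 CPM of Cd3g and 2.7 CPM of Trbc2. The part of all these markers in the Runx3 and Runx2 differences of VFDM COMBO was not tested. In VFDM AZA, T and natural killer markers summed to 6.83 to 13.7 CPM with Cd3d, Cd3e, Cd3g, Cd8a, Trbc1, Gzma and Ncr1 at 0 in all 4 libraries. Nkg7 was at 5.59 to 9.68 CPM in VFDM AZA, above every VFDM vehicle library, and was not called. The part of these markers in the Runx3 level of VFDM AZA was not tested.

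In VF cells, with Dnmt3a intact, the Runx3 changes were smaller. VF IFN libraries held 194, 165.7, 140.5 and 147.5 CPM of Runx3, against 102.8, 90.3, 97.4 and 92.4 CPM in VF vehicle. The groups did not overlap, but the log2 fold change of 0.76 ± 0.24 missed the threshold (edgeR, adjusted p = 0.0986; 2.43% of rows called). VF COMBO libraries held 146.5, 192, 165.1 and 155 CPM of Runx3, also above every VF vehicle library, and the log2 fold change of 0.78 ± 0.24 passed (adjusted p = 0.0406; 8.29% of rows called). That call ended in 9 of 14 alternatives, among them leaving out any of VF vehicle libraries 1 to 4 or VF COMBO libraries 2 or 3, with adjusted p of 0.0182 to 0.448 over all of them. VF COMBO library 1 held 23.8 CPM of Cd3e and 11.7 CPM of Trbc2, which were at 0 in the other 3 VF COMBO libraries, and the fold change without it was 0.90 on the log2 scale. That library also held 27.4 CPM of Procr, against 4.64, 0.576 and 10.1 CPM in VF COMBO libraries 2, 3 and 4. Of the 18 LT-HSC markers, 3 were called lower in VF COMBO, Hlf, Robo4 and Esam, and 1 higher, Ly6a. Among all rows 4.13% were called lower and 4.16% higher. Erythroid markers summed to 469 to 1490 CPM in VF COMBO and 277 to 571 CPM in VF vehicle, with 6 of 15 called higher, and megakaryocyte and platelet markers to 1480 to 1910 CPM in VF IFN and 553 to 704 CPM in VF vehicle, with 3 of 12 called higher. Their part in the Runx3 levels was not tested. VF AZA libraries held 62.1, 116, 125 and 121 CPM of Runx3, with library 1 below and the other 3 above the VF vehicle range, and a log2 fold change of 0.15 ± 0.24 (adjusted p = 0.858; 1.2% of rows called). Between the VF drug groups, Runx3 differed by 0.63 ± 0.24 for COMBO minus AZA (adjusted p = 0.171) and by 0.03 ± 0.24 for COMBO minus IFN (adjusted p = 0.981), where 1.85% and 0.00902% of rows were called.

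The response of Runx3 to treatment was then compared between genotypes by interaction terms. The COMBO response of Runx3 was larger in VFDM than in VF cells by 1.50 ± 0.36 on the log2 scale (edgeR, adjusted p = 0.0124; 3.74% of rows called), and the AZA response by 1.43 ± 0.34 (adjusted p = 0.0401; 0.582% of rows called). The IFN response differed by 1.29 ± 0.34, an estimate of similar size whose 95% interval was 0.59 to 1.99, and did not pass (adjusted p = 0.382). No row passed in that comparison with edgeR (0%), with 1149 rows at an unadjusted p under 0.05, while DESeq2 called 33 rows. The AZA term kept its call in 5 of 22 alternatives (adjusted p 0.0111 to 0.421) and was 1.08 without VFDM AZA library 4 (adjusted p = 0.179). The COMBO term kept it in 19 of 21 (0.0034 to 0.0642), losing it without VF vehicle libraries 1 and 4 and without the libraries under 20000 detected rows. The 3 terms share the vehicle libraries of both genotypes, including the low VFDM vehicle level, and are not independent.

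Over the 8 groups the mean level of Runx3 ran, from high to low, from VF COMBO (165 ± 19.8 CPM, SD, n = 4) and VF IFN (162 ± 23.9) through VFDM COMBO (113 ± 9.37, n = 3), VF AZA (106 ± 29.7), VFDM IFN (96 ± 36.6), VF vehicle (95.8 ± 5.59) and VFDM AZA (69.5 ± 29) to VFDM vehicle (23.2 ± 4.97). Neighbours in this order overlapped in their libraries except at 2 steps, VF IFN above VFDM COMBO and VFDM AZA above VFDM vehicle. Averaged over the 4 treatments, Runx3 was lower in VFDM than in VF by 0.99 ± 0.13 on the log2 scale, a 1.99-fold difference (edgeR, adjusted p = 5.76e-06; 2.37% of rows called). VFDM COMBO and VF COMBO did not overlap (104 to 122 and 146.5 to 192 CPM) and neither did VFDM IFN and VF IFN (43.8 to 129 and 140.5 to 194 CPM), whereas VFDM AZA and VF AZA did (50.9 to 112.6 and 62.1 to 125 CPM).

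**Figure D2:**
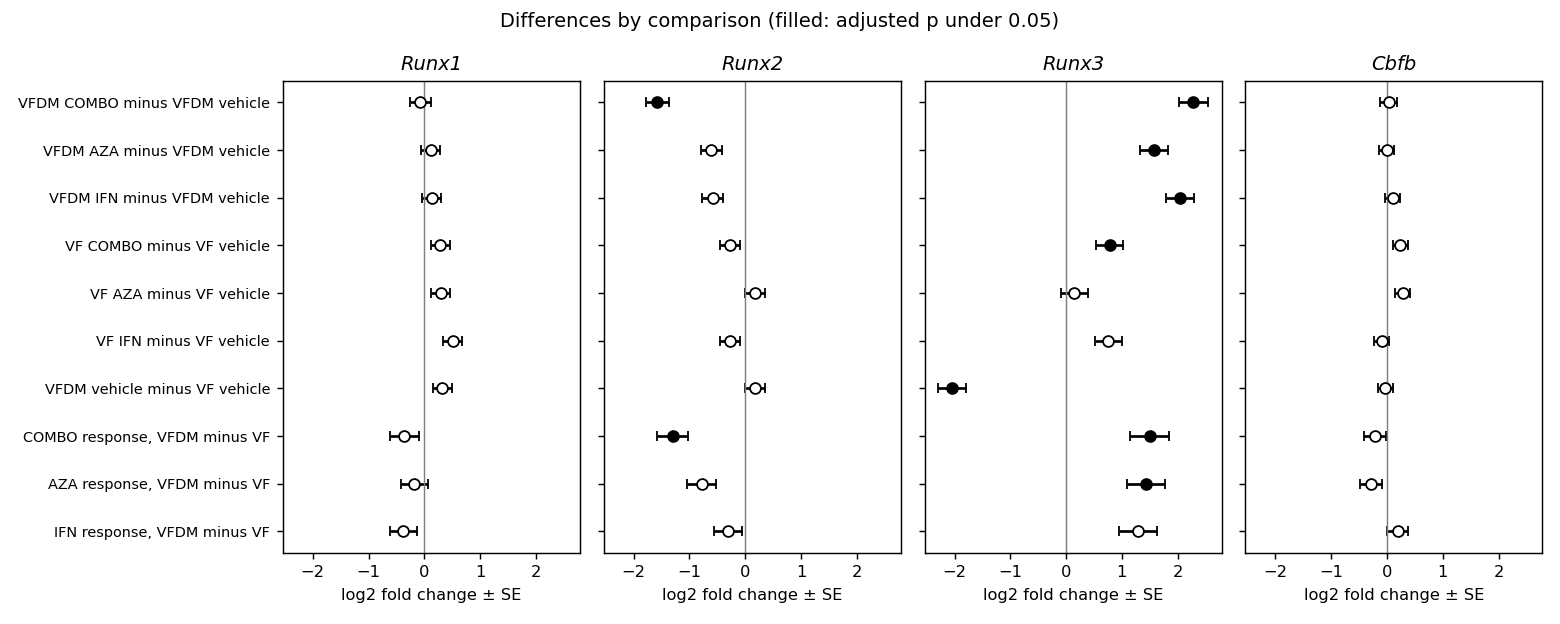
Log2 fold changes with their SE (edgeR) for the 4 genes in the 6 treatment comparisons, the vehicle comparison of the genotypes and the 3 differences of response; filled points have an adjusted p under 0.05. Runx3 is called in 7 of these 10, from -2.05 for VFDM vehicle minus VF vehicle to 2.28 for VFDM COMBO minus VFDM vehicle, Runx2 in 2, and Runx1 and Cbfb in 0.

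Genes next to Runx3 on chromosome 4 were not called in the vehicle comparison. The 3 nearest tested protein-coding genes on each side are Clic4, an intracellular chloride channel, Srrm1, a splicing coactivator, Ncmap, a myelin protein, and Rsrp1, Syf2 and Tmem50a, and they lie up to 206 kb away. Of these 6, 0 were called between VFDM vehicle and VF vehicle, in VFDM IFN and in VFDM AZA, where 0.956%, 0.965% and 0.925% of all rows were called, so a count of 0 is near the background. In the vehicle comparison their log2 fold changes were 0.15 ± 0.14 for Clic4 and 0.09 ± 0.11 for Srrm1, against -2.05 ± 0.25 for Runx3. In VFDM COMBO 2 of the 6 were called, with 16% of all rows, Clic4 at 0.70 ± 0.15 (edgeR, adjusted p = 8.67e-04) and Srrm1 at 0.42 ± 0.12 (adjusted p = 0.0153), both smaller than the Runx3 difference of 2.28. In VF COMBO 3 of the 6 were called higher, Clic4, Rsrp1 and Srrm1 at 0.49 ± 0.14, 0.52 ± 0.14 and 0.47 ± 0.11 (8.29% of all rows), and in VF IFN 2, Clic4 and Rsrp1 at 0.50 ± 0.14 and 0.52 ± 0.14 (2.43% of all rows). The Runx3 estimates there were 0.78 and 0.76.

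Runx2 was about 3-fold lower in VFDM COMBO than in VFDM vehicle and was lower there than under either drug alone. Runx2 (ENSMUSG00000039153; mm10 chr17:44495987-44814797, minus strand) overlaps the antisense gene Runx2os1 in its exons, which was at group means of up to 6.74 CPM. Reads of the antisense gene cannot be told apart from Runx2 unless strand was used in counting, which is not given in the sources used here. VFDM COMBO libraries 2, 3 and 4 held 44.1, 36.9 and 55 CPM of Runx2, and the 4 VFDM vehicle libraries 135, 162.5, 124 and 118 CPM. Every VFDM COMBO library was below every VFDM vehicle library. The log2 fold change of Runx2 was -1.57 ± 0.21 (edgeR, adjusted p = 1.27e-06; 16% of rows called), with adjusted p of 3.42e-11 to 9.48e-05 over the alternatives.

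The single agents gave intermediate levels of Runx2 in VFDM cells. VFDM AZA libraries held 108, 102, 58.4 and 86.3 CPM and VFDM IFN libraries 99.3, 87.8, 75.5 and 98.1 CPM of Runx2, all below the lowest VFDM vehicle library at 118 CPM. The log2 fold changes of -0.61 ± 0.18 for AZA and -0.58 ± 0.18 for IFN did not pass the test (edgeR, adjusted p = 0.136 and 0.193). VFDM COMBO was below both without overlap, at -0.97 ± 0.20 against VFDM AZA (adjusted p = 0.0019) and -0.99 ± 0.20 against VFDM IFN (adjusted p = 0.00138). Both calls were kept whichever library was left out, with the highest adjusted p at 0.0399 and 0.0347.

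Runx2 passed the test in no treatment comparison of VF cells. VF COMBO libraries held 98.7, 95.3, 115 and 86 CPM, VF IFN libraries 124, 97.9, 81.6 and 90.5 CPM, and VF vehicle libraries 121, 111, 96.4 and 149 CPM of Runx2. The 3 groups overlapped, with log2 fold changes of -0.27 ± 0.18 for COMBO (adjusted p = 0.366) and -0.28 ± 0.18 for IFN (adjusted p = 0.642). VF AZA libraries held 91.5, 153, 149 and 145.5 CPM, with library 1 lowest for Runx2 as it was for Runx3, and the AZA difference was 0.18 ± 0.18 (adjusted p = 0.745). The COMBO response of Runx2 was lower in VFDM than in VF cells by 1.30 ± 0.27 on the log2 scale (edgeR, adjusted p = 0.00423; 3.74% of rows called). That difference was -0.96 and did not pass without the libraries under 20000 detected rows (adjusted p = 0.0835; 4.22e-04 to 0.0835 over all alternatives). The AZA response differed by -0.78 ± 0.26 (adjusted p = 0.217) and the IFN response by -0.31 ± 0.26 (adjusted p = 1).

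Under vehicle the genotypes overlapped for Runx2, with 118 to 162.5 CPM in VFDM vehicle and 96.4 to 149 CPM in VF vehicle, and a log2 fold change of 0.18 ± 0.18 (edgeR, adjusted p = 0.881; 95% interval -0.19 to 0.55). Averaged over the 4 treatments, Runx2 was lower in VFDM by 0.42 ± 0.09 on the log2 scale (adjusted p = 0.00945). This average lost its call without the libraries under 20000 detected rows, at -0.20 (adjusted p = 0.358), and without VF vehicle libraries 1 and 4, at -0.35 (0.00328 to 0.358 over all alternatives). The group means, from high to low, were those of VFDM vehicle (135 ± 19.6 CPM) and VF AZA (134.8 ± 29), VF vehicle (119 ± 22.3), VF COMBO (98.8 ± 12.2), VF IFN (98.6 ± 18.4), VFDM IFN (90.2 ± 11.1), VFDM AZA (88.7 ± 22.2) and VFDM COMBO (45.3 ± 9.11, n = 3). Only the last step in this order had no overlap between its libraries. Markers of osteoblasts, the cells RUNX2 is best known for, summed to 32.1 to 62.9 CPM in VFDM COMBO and to 13.7 to 22.7 CPM in VFDM vehicle. Of the 6 tested, 0 were called in that comparison, where 16% of all rows were called. In VFDM COMBO 3 of the 11 markers had a mean of at least 1 CPM, and Sp7, Bglap, Bglap2 and Dmp1 were at 0 in every library.

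Runx1 passed the test in 0 of the 15 comparisons. Runx1 (ENSMUSG00000022952; mm10 chr16:92601466-92826149, minus strand) shares exon sequence with the antisense gene Gm26626, which was under 1 CPM in every group mean. In VFDM cells its libraries were close together, at 263 to 279.8 CPM in COMBO, 291 to 335 in AZA, 289 to 329.7 in IFN and 255.5 to 312 in vehicle. VFDM COMBO was the lowest of these 4 groups for Runx1, with a log2 fold change of -0.07 ± 0.19 against VFDM vehicle (edgeR, adjusted p = 0.861; 95% interval -0.45 to 0.31). VF libraries spread further, at 174.6 to 363 CPM in COMBO, 223 to 326 in AZA, 257 to 469.7 in IFN and 174.8 to 268 in vehicle. VF IFN library 1 was the highest of all 31 libraries for Runx1. The largest Runx1 estimate was that of VF IFN against VF vehicle, 0.51 ± 0.17 (adjusted p = 0.121), with overlap between the groups. Without VF COMBO library 1, the library with T cell receptor transcripts, the VF COMBO difference of Runx1 was 0.52 and passed (adjusted p = 0.0356), against 0.29 ± 0.17 with it (adjusted p = 0.303). That library also had the highest Procr level of VF COMBO, 27.4 CPM, and the lowest erythroid marker sum, 469 CPM. The vehicle groups differed in Runx1 by 0.32 ± 0.17 for VFDM minus VF (adjusted p = 0.514), and every pair of neighbours in the order of the 8 group means overlapped.

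Cbfb, the shared partner, also passed in 0 of the 15 comparisons and had the narrowest range of estimates. Cbfb (ENSMUSG00000031885; mm10 chr8:105170674-105217989, plus strand) was at 123 ± 12 CPM in VFDM vehicle and 125.5 ± 14.5 CPM in VF vehicle (SD, n = 4 each), with a log2 fold change of -0.03 ± 0.14 (edgeR, adjusted p = 0.998; 95% interval -0.30 to 0.24). Group means over all treatments lay between 118 CPM in VF IFN and 153 CPM in VF AZA. VF AZA libraries held 165, 168, 138 and 140.7 CPM of Cbfb, against 139.7, 114, 136 and 112 CPM in VF vehicle. The 2 groups overlapped in part, and the AZA difference of 0.29 ± 0.14 did not pass (adjusted p = 0.327). In the 3 treated VFDM groups the log2 fold changes of Cbfb were 0.03 ± 0.15 for COMBO, -0.0021 ± 0.14 for AZA and 0.10 ± 0.14 for IFN. The 95% intervals of Cbfb ran from -0.27 to 0.32 in COMBO and from -0.28 to 0.27 in AZA, comparisons in which Runx3 differed by 2.28 and 1.58.

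Of 29 cofactors that RUNX proteins are reported to bind, all were tested. They include the ETO family repressors, Groucho (TLE) corepressors, histone deacetylases and acetyltransferases, and kinases. Cdk6, a cyclin-dependent kinase that binds RUNX1, was called in 5 of the 6 treatment comparisons, all higher. Its levels were 1555 ± 45.9 CPM in VFDM COMBO (n = 3), 889 ± 257 CPM in VFDM AZA, 1017 ± 234 CPM in VFDM IFN and 399 ± 37.3 CPM in VFDM vehicle, with log2 fold changes of 1.96 ± 0.24, 1.16 ± 0.23 and 1.35 ± 0.23 (edgeR, adjusted p = 6.43e-07, 0.00374 and 4.09e-04). In VF cells Cdk6 was at 1398 ± 397 CPM in COMBO and 1337 ± 363 CPM in IFN, against 612 ± 57.7 CPM in vehicle (adjusted p = 0.00107 and 0.00259). The AZA group of VF cells held 776 ± 238 CPM of Cdk6 and did not pass.

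In VFDM COMBO 2 of the 29 cofactors rose and 6 fell, where 5.52% of all rows rose and 10.5% fell, with a median log2 fold change of -0.18 for the list and -0.08 for all rows tested. Src, a tyrosine kinase that phosphorylates RUNX proteins, was at 2.59 ± 0.88 CPM in VFDM COMBO and 15.5 ± 3.65 CPM in VFDM vehicle (edgeR, adjusted p = 8.47e-05). Runx1t1, the ETO partner of the leukaemic RUNX1 fusion, had 0 counts in all 3 VFDM COMBO libraries, which allows up to 0.173 CPM in the shallowest, and 4.32 to 22.9 CPM in VFDM vehicle (adjusted p = 1.11e-04). Wwtr1, Tle2 and Crebbp also fell, and the rise beside Cdk6 was that of Suv39h1, a histone methyltransferase. Of the 29 cofactors 0 were called between VFDM vehicle and VF vehicle with edgeR, a count near the background of 0.956% of all rows.

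Blood transcription factors that work with RUNX1 at shared enhancers were followed in a list of 18, all tested. In VFDM COMBO 5 rose and 6 fell, against 5.52% and 10.5% of all rows (median log2 fold change 0.23, against -0.08 for all rows). Gata1, the erythroid and megakaryocyte factor, rose to 89.1 ± 19.1 CPM in VFDM COMBO, 37.7 ± 18.3 CPM in VFDM AZA and 34.1 ± 12.6 CPM in VFDM IFN, against 8.17 ± 1.18 CPM in VFDM vehicle. Its log2 fold changes were 3.45 ± 0.37, 2.21 ± 0.34 and 2.06 ± 0.34 (edgeR, adjusted p = 3.77e-08, 1.22e-04 and 2.51e-04), so Gata1 and Runx3 were both higher in all 3 treated VFDM groups. Erg, an ETS factor of stem cells, fell to 57.8 ± 11.2 CPM in VFDM COMBO, against 179.8 ± 3.59 CPM in VFDM vehicle (-1.64 ± 0.18, adjusted p = 5.74e-08). Ikzf1, a lymphoid factor, was at 330.3 ± 30.2 CPM in VFDM COMBO and 168 ± 5.76 CPM in VFDM vehicle (adjusted p = 1.58e-05), and Etv6, another ETS factor, at 291 ± 47.8 CPM and 504 ± 22 CPM (adjusted p = 4.18e-05).

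The other members called in VFDM COMBO were Gfi1b, Myb and Ldb1, which rose, and Fli1, Gfi1, Lmo2 and Lyl1, which fell. Of the heptad factors that bind blood enhancers with RUNX1, Tal1 was at 208 ± 5.56 CPM in VFDM COMBO and 193 ± 9.1 CPM in VFDM vehicle and was not called. The erythroid and neutrophil marker sums given above for VFDM COMBO move with these genes as well, and their part was not tested. In VF cells COMBO raised Gata1, Ikzf1, Gata2 and Elf1, IFN raised Fli1 and Elf1, and AZA lowered Cebpa. Fli1 was at 271 ± 16.8 CPM in VF IFN and 154.5 ± 30.4 CPM in VF vehicle (0.81 ± 0.14, adjusted p = 4.27e-04), and Elf1 at 316 ± 34.4 CPM and 162 ± 50.1 CPM (adjusted p = 5.48e-04). Between VFDM vehicle and VF vehicle 0 of the 18 were called with edgeR, again near the background of 0.956%.

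**Figure D3:**
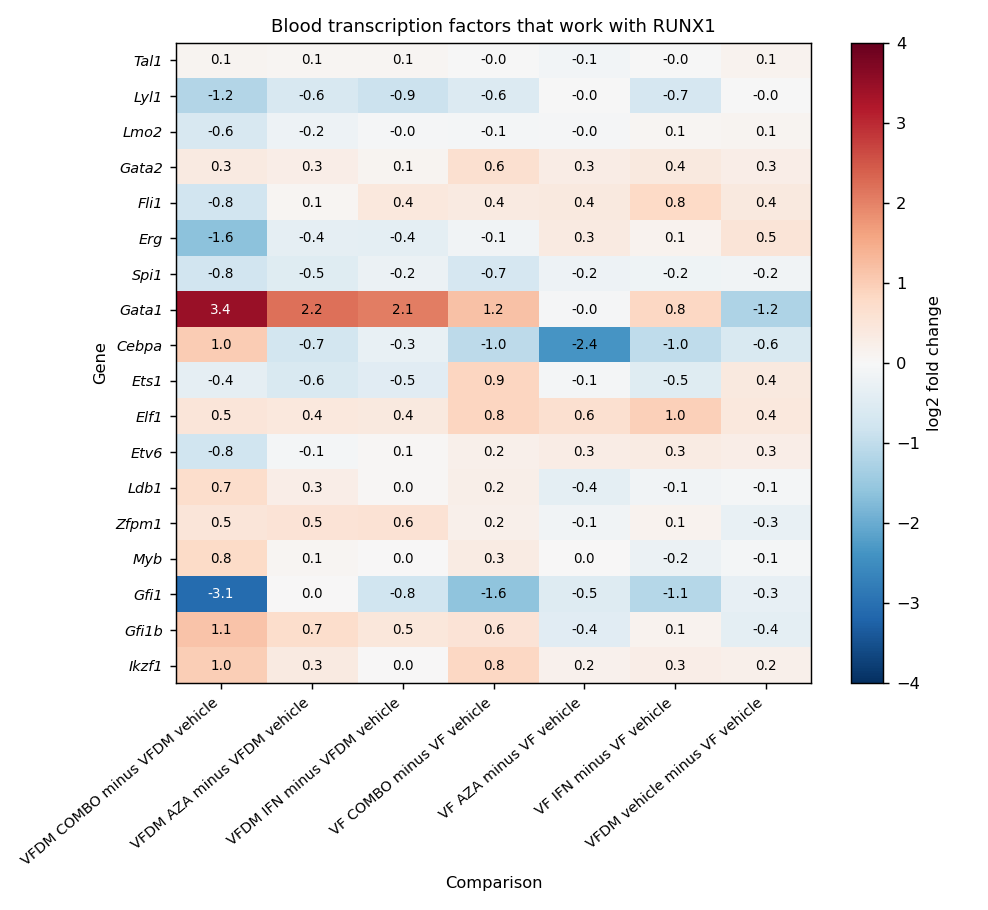
Log2 fold changes (colour and number) of the 18 blood transcription factors that work with RUNX1, rows, in 7 comparisons, columns, whether or not they passed the test. Gata1 stands out with 3.45, 2.21 and 2.06 in VFDM COMBO, AZA and IFN, and Erg has -1.64 in VFDM COMBO, while the column of VFDM vehicle minus VF vehicle holds no called value.

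Reported target genes of RUNX factors in blood cells were listed in 28 genes, of which 24 were tested and Csf2, Il3, Prf1 and Cd8a were too low. Of the 24, 0 were called with edgeR between VFDM vehicle and VF vehicle, near the background of 0.956% (median log2 fold change -0.16, against -0.01 for all rows). Pf4, the platelet factor that RUNX1 is known to regulate, rose in 5 treatment comparisons. It was at 72 ± 33.9 CPM in VFDM COMBO, 117 ± 50.8 CPM in VFDM AZA, 204 ± 74.8 CPM in VFDM IFN and 20.4 ± 12.8 CPM in VFDM vehicle (edgeR, adjusted p = 0.028, 0.0189 and 0.00124). In VF cells Pf4 was at 162 ± 125 CPM in COMBO and 255 ± 49.8 CPM in IFN, against 47.6 ± 26.8 CPM in vehicle (adjusted p = 0.0408 and 0.0135). Itga2b, the platelet integrin CD41, rose in VFDM IFN (329.7 ± 117 CPM, against 90 ± 28.2 CPM in VFDM vehicle, adjusted p = 0.0178). The megakaryocyte and platelet markers summed above share Pf4 and Itga2b with these targets.

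In VFDM COMBO 6 of the 24 tested targets rose and 3 fell, against 5.52% and 10.5% of all rows. Gfi1 and Nfe2 were among the falls. The rises were Gfi1b, Pf4, Ebf1, Myl9, Rag1 and Gzmb. Ebf1, a B cell factor, was at 0.22 to 10.8 CPM in VFDM COMBO and at 0 in all 4 VFDM vehicle libraries, and Myl9, a myosin light chain that RUNX1 is reported to activate in megakaryocytes, at 0.57 to 12.6 and 0 to 0.40 CPM. These low genes give no useful fold. In VF COMBO the targets Cd4 and Pf4 rose and Ccnd3 fell, and the Cd4 mean rested on library 1 with its T cell transcripts, at 40.3 CPM. Of 21 targets with a promoter window, 9 (42.9%) held TGTGGT or TGCGGT on either strand, against 6764 of 27025 genes (25%).

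Genes most like each member were found by Pearson correlation of log2 CPM over the 31 libraries among 10467 rows. The libraries share groups and depth, so the values are descriptions. The highest for Runx3 were Emilin2, an extracellular matrix glycoprotein (r = 0.844), Ffar2, a receptor for short-chain fatty acids (0.833), Cdk6 (0.821), Nomo1 (0.817) and Adgrg3, an adhesion receptor (0.808). Emilin2 had log2 fold changes of -3.28 ± 0.57 between VFDM vehicle and VF vehicle, 4.93 ± 0.62 in VFDM COMBO and 3.36 ± 0.57 in VFDM AZA, the same signs as Runx3, which a choice by correlation favours. In VF cells Emilin2 had 0.11 ± 0.51 in IFN and 0.02 ± 0.51 in AZA. In VF COMBO it had 1.28 ± 0.52, without overlap with VF vehicle but not called (edgeR, adjusted p = 0.128).

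For Runx2 the highest were Setd7, a lysine methyltransferase (r = 0.872), Ppp2r3a, a phosphatase subunit (0.87), Arid5a, an RNA-binding protein (0.867), Sesn3, a stress-response protein (0.851), and Matk, a kinase that restrains SRC family kinases (0.849). All 5 had negative log2 fold changes in VFDM COMBO, from -2.15 ± 0.23 for Matk to -1.04 ± 0.11 for Setd7, a sign that a choice by correlation favours. For Runx1 they were St7 (0.81), Phc3 (0.798), Kmt2c (0.79), Pcgf3 (0.788) and Fam208a (0.775), among them the Polycomb components Phc3 and Pcgf3. For Cbfb they were Kif20b (0.826), Cbx1 (0.785), Hmmr (0.768), Smarcc1 (0.755) and Smc5 (0.75), with the mitotic proteins Kif20b and Hmmr. No member was among the 5 of another, and the correlations between members ran from -0.421 for Runx1 with Cbfb to 0.0853 for Runx3 with Cbfb.

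**Figure D4:**
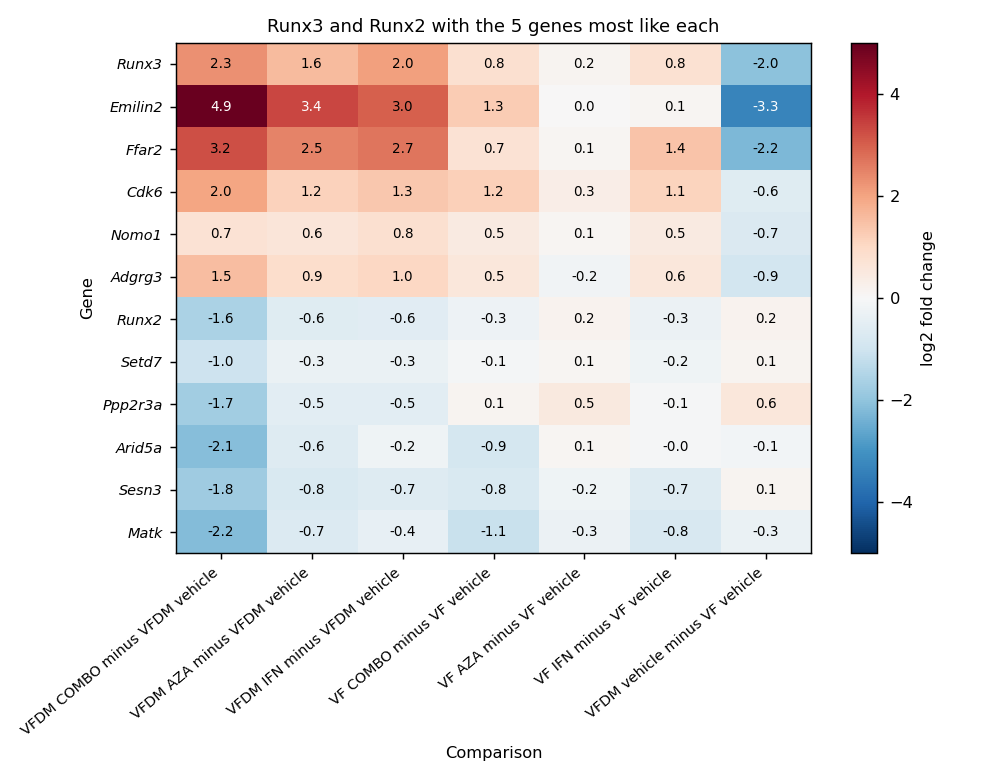
Log2 fold changes (colour and number) of Runx3 and Runx2, each followed by the 5 genes most like it over the 31 libraries, rows, in 7 comparisons, columns, whether or not they passed the test. The Runx3 block is negative for VFDM vehicle minus VF vehicle and positive in the 3 VFDM treatments, and the Runx2 block is negative in VFDM COMBO, with -1.57 for Runx2. The 5 genes of each block were chosen by correlation in these same libraries, which favours shared signs.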

How the data were processed

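RNA of 31 LT-HSC libraries in 8 groups was prepared with a stranded total RNA kit for low input, per the labels. The authors deposited 1 table of raw counts per gene, from alignment to mm10 per the labels, with 55492 rows, 55141 of them with a symbol in GENCODE vM21. Per the submitters' processing notes the tools named were STAR 2.7.10a, R 4.3.0, FastQC 0.11.5 and featureCounts. Antisense and overlapping genes are uncertain, because the strand setting, the annotation and the treatment of multiply mapped reads are not given in the sources used.

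Members and gene lists were chosen with earlier results of these data known. In R 4.3.3, edgeR 4.0.16 kept 22172 rows (filterByExpr, minimum count 10), scaled by TMM and fitted a robust quasi-likelihood model with 1 mean per group. The 15 two-sided comparisons were adjusted by Benjamini-Hochberg over all rows, with a threshold of 0.05, and 95% intervals used the t quantile of each row's degrees of freedom. CPM are per TMM-scaled library. Named genes were the 4 members, Dnmt3a and Irf7, up to 4 members of each list with the smallest p among those past the test, markers used as checks, and for each member the 5 rows with the highest correlation (log2 CPM, prior count 2, mean at least 2, no predicted-gene symbol). Genes named beyond these were chosen after their values were seen.

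Counts of 17782394 to 73910928 per library make 3 counts worth at most 0.174 CPM, a limit for counting error alone, as no molecular identifiers are named in the labels. Replicate libraries differed beyond sampling noise (chi-square per degree of freedom at least 19.6 in 45 pairs). The model was tested on simulated data. Alternatives were RLE factors, no filter, DESeq2 1.42.0, a replicate block and leaving out each library. The 2 added after seeing the data left out VF vehicle libraries 1 and 4, or the 8 libraries under 20000 detected rows. No setting left out together VF vehicle libraries 2 and 4, the libraries with the low TMM factors. Promoter windows came from RefSeq, where 21 of 28 listed targets matched by symbol. Values of some listed genes are not reported here.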

Additional observations from a re-analysis of the deposited data

Results flagged for a closer look

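In groups of 4 libraries, 3 of 28 sets of values for the 4 genes had a library far from the others, where chance gives about 1 in 20. VF AZA library 1 was the lowest of its group for both Runx3 (62.1 CPM, with 116 to 125 in the other 3) and Runx2 (91.5 CPM, with 145.5 to 153 in the others). VFDM AZA library 4 was the highest of its group for Runx3 (112.6 CPM, with 50.9 to 60.3 in the others).

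In 3 cases a response differed between VFDM and VF cells by the interaction term. The COMBO response differed by 1.50 for Runx3 and by -1.30 for Runx2 on the log2 scale, in opposite directions, and the AZA response by 1.43 for Runx3. The low Runx3 level of VFDM vehicle enters both Runx3 terms.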

How the results depend on the processing

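Members' values were recomputed with RLE factors, without the filter, with DESeq2, with a replicate block, with each library left out and, added after seeing the data, without VF vehicle libraries 1 and 4 or without the libraries under 20000 detected rows. Of the members' recomputed values, 890 kept direction and side of the threshold, 32 lost and 3 gained a call, and 43 changed sign, all 43 in estimates that were not called. The replicate numbers did not pair the libraries (correlation of same-numbered libraries -0.266 to 0.277, 10 of 105 pairs over 0.1). The replicate block ended only the Runx3 AZA response (1.42) among the members' calls. In the shallowest library a level under 0.174 CPM (3 counts) was not detectable at this depth. The cause was not tested for any of the changes below.

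The Runx3 AZA response was 1.42 with RLE factors, 1.39 without the filter, 1.37 without VF vehicle libraries 1 and 4 and 1.22 without the libraries under 20000 detected rows, none called, and 1.08 to 1.57 with a library left out. Runx3 in VF COMBO was 0.86 without the filter, 0.84 without VF vehicle libraries 1 and 4 and 0.72 without the libraries under 20000 detected rows, again not called, and 0.76 to 0.90 with a library left out. Runx3 in VFDM AZA was 1.18 without the libraries under 20000 detected rows. The COMBO response of Runx3 was 1.48 and 1.65 under the 2 added settings, and that of Runx2 -0.96 under the second, all not called. The mean VFDM minus VF difference of Runx2 was -0.35 and -0.20 under them. Runx3 in VFDM COMBO minus AZA gained a call at 1.20 without the libraries under 20000 detected rows and ran from 0.60 to 1.07 with a library left out. Runx1 in VF COMBO ran from 0.20 to 0.52 and gained a call without VF COMBO library 1.

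Signs changed in these uncalled estimates. Runx1 in VF COMBO minus AZA was 0.0084 with RLE factors, 0.012 without the filter, 0.0084 with DESeq2, 0.18 without the libraries under 20000 detected rows and -0.14 to 0.19 with a library left out. Without the filter Cbfb was 0.011 in VFDM AZA and 0.022 between the vehicle groups, and 0.0050 between them without VF vehicle libraries 1 and 4. Without the libraries under 20000 detected rows Runx3 was -0.042 in VF AZA and -0.052 in VF COMBO minus IFN, Runx2 -0.19 in VF COMBO minus IFN, and Cbfb 0.078 in VFDM AZA, -0.088 in VFDM COMBO and -0.17 in VFDM COMBO minus AZA. With a library left out, Cbfb ran from -0.073 to 0.052 between the vehicle groups, -0.14 to 0.039 in VF IFN, -0.12 to 0.065 in VF COMBO minus AZA, -0.024 to 0.090 in VFDM AZA, -0.17 to 0.057 in VFDM COMBO minus IFN, -0.098 to 0.16 in VFDM COMBO and -0.086 to 0.15 in VFDM COMBO minus AZA. Runx1 ran from -0.33 to 0.034 in VF COMBO minus IFN and -0.065 to 0.024 in VFDM COMBO, Runx2 from -0.039 to 0.17 and Runx3 from -0.016 to 0.16 in VF COMBO minus IFN.

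The count of called rows moved by over 1.5 times in most comparisons. With DESeq2 it was 961 in VF IFN, 841 in VF AZA, 2989 in VF COMBO, 328 in VFDM IFN, 418 in VFDM AZA, 190 in VF COMBO minus IFN, 1212 in VF COMBO minus AZA, 2654 and 2650 in VFDM COMBO minus IFN and minus AZA, 630 between the vehicle groups, 881 in the genotype mean, and 33, 381 and 1834 in the IFN, AZA and COMBO responses. Without the filter it was 136 between the vehicle groups. Without VF vehicle libraries 1 and 4 it was 205 in VF IFN, 113 in VF AZA, 358 in VF COMBO, 45 between the vehicle groups, 318 in the genotype mean, and 70 and 328 in the AZA and COMBO responses. Without the libraries under 20000 detected rows it was 3 in VF AZA, 228 in VF COMBO, 6062 in VFDM COMBO, 0 in VF COMBO minus IFN, 45 in VF COMBO minus AZA, 3742 and 2969 in VFDM COMBO minus IFN and minus AZA and 61 in the AZA response. With a library left out it ran from 823 to 3006 in VF COMBO, 63 to 815 between the vehicle groups, 273 to 1040 in VF IFN, 85 to 942 in VF AZA, 0 to 70, 86 to 269 and 524 to 1124 in the IFN, AZA and COMBO responses, 1 to 276 in VF COMBO minus IFN, 218 to 1017 in VF COMBO minus AZA, 120 to 227 in VFDM IFN, 112 to 285 in VFDM AZA, 1092 to 1451 in VFDM COMBO minus IFN and 1039 to 1565 in VFDM COMBO minus AZA.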
